A study of Mus musculus with 12 samples.

Results

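Predicted Gm genes are mouse loci that carry a provisional symbol, Gm followed by digits, because they were found by gene prediction and have not been given a descriptive name. On the arrays studied here 7730 of the 65535 transcript clusters (groups of probes that the array design treats as 1 transcribed unit) carried 1 symbol of that form. Of these, 1960 clusters with 1952 different symbols averaged 6 log2 units or more over the 12 arrays and are described here. The 5770 dimmer ones are used only for comparison. The members were thus chosen by their symbol and selected on their mean level over all arrays, so that the level itself is a description, while the rule did not use the difference between conditions. At the lower edge, the members Gm13233, Gm24412 and Gm16082 had means of 6.00, 6.01 and 6.01 log2 units, and the clusters just outside, Gm22249, Gm11658 and Gm26166, had means of 6.00, 6.00 and 5.99 log2 units.

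The cells were primary oligodendrocyte precursor cells (OPCs) of C57Bl/6 mice, taken from brains at postnatal day 2 with anti-CD140a beads, grown for 48 h in proliferation medium and then moved to differentiation medium. Extracellular vesicles (EVs), membrane particles that cells release, came from primary mouse microglia and were added at a ratio of 2 donor microglia per OPC. The groups, with 3 arrays each, were i-EVs (donor microglia given pro-inflammatory cytokines), IL4-EVs (donors given interleukin-4), MSC-EVs (donors given the same cytokines while sharing the culture with mesenchymal stem cells) and CTRL (medium without EVs). All donor microglia were briefly exposed to ATP to release EVs, and RNA was taken at 24 h. CTRL wells received no vesicles, so the presence of EVs and their type change together in each comparison with CTRL. The sources call the samples independent replicates but do not say whether they came from separate litters or cultures, so the p-values measure the spread between these arrays, which may be partly technical.

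Most predicted Gm genes that reach an array signal are copies of other genes. A processed pseudogene is an mRNA that was copied back into DNA and inserted elsewhere in the genome, and it usually keeps much of the sequence of its parent. Small nuclear RNAs (snRNAs) are the RNA cores of the spliceosome, and their genes have spread through the genome in many near-identical copies. Small nucleolar RNAs (snoRNAs) guide chemical modification of ribosomal and spliceosomal RNA, and in mammals most are cut out of introns of a host gene. For all 3 kinds a probe can in principle bind the RNA of like copies. Probe sequences were not compared here, so how far the value of a cluster is that of the named locus alone was not tested.

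All 1960 members were found in the RefSeq gene table, 1736 by symbol, 161 by gene number and 63 by an older symbol. By its gene type, 1350 (68.9%) were pseudogenes, 289 (14.7%) snRNAs, 215 (11%) snoRNAs, 63 (3.21%) protein coding, 33 (1.68%) long noncoding RNAs (lncRNAs) and 10 (0.51%) other noncoding RNAs. The mean level had a median of 10.6 log2 units over the members, with quartiles of 7.86 and 13.9 log2 units. Levels of different clusters depend on their probes and are not set against each other.

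Some clusters could not be told apart by their values. In 226 members all 12 values were identical to those of another cluster, so the 1960 members held 1784 distinct sets of values. The largest such set had 49 clusters, 47 of them members annotated as snRNA on 18 chromosomes, together with Rnu6, a gene for the U6 spliceosomal RNA. Another set joined 5 members with Rnu1a1, a gene for the U1 spliceosomal RNA. A set of 36 clusters lay at 19.93 log2 units, the highest value in the table, on 11 of 12 arrays and at 19.75 on i-EVs replicate 2. It held 7 pseudogene members, among them Gm10222, Gm10925, Gm13292, Gm4609 and Gm12537, beside Hspa8 (a heat shock chaperone), Rn7sk (a small RNA that restrains transcription elongation) and the mitochondrial ribosomal RNA gene mt-Rnr1. These 7 members were saturated and show no contrast between groups.

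Markers of OPCs were present. The 6 measured by a cluster of 1 symbol had means between 9.62 and 19.1 log2 units, while Pdgfra, the gene of the CD140a protein used for the sort, had no such cluster, and the 7 microglial markers lay between 3.18 and 3.88 log2 units, with none at 6 or more. Of the other lists, 1 of 4 myelin, 1 of 4 astrocyte and 1 of 5 neuronal markers reached 6. The neuronal one, Snap25 (a protein of synaptic vesicle release), was at 8.09 to 8.25 log2 units in i-EVs, 7.77 to 8.02 in IL4-EVs and 7.87 to 8.18 in MSC-EVs, against 8.32 to 8.51 in CTRL, and so was lower on every EV array, as were the members. Its log2 fold change was -0.27 in i-EVs (adjusted p = 0.246), -0.56 in IL4-EVs (adjusted p = 0.0075) and -0.44 in MSC-EVs (adjusted p = 0.0135). In MSC-EVs the astrocyte marker Slc1a2, a glutamate transporter, had a log2 fold change of 0.33 (adjusted p = 0.0203). Of the OPC markers Cspg4 (the NG2 proteoglycan) had 0.79 (adjusted p = 0.0112) and Ptprz1 0.31 (adjusted p = 0.0078). Cspg4 was at 10.57 log2 units on MSC-EVs replicate 3, against 9.70 and 9.84 on replicates 1 and 2. The other OPC markers measured had smaller changes, at 0.08 for Olig1, 0.04 for Olig2, -0.22 for Sox10 and -0.16 for Gpr17 (adjusted p between 0.522 and 0.773). The median of the 4 cycling markers was 11.22 to 11.29 log2 units on i-EV arrays, 11.15 to 11.23 on IL4-EV arrays and 11.06 to 12.67 on MSC-EV arrays, against 11.76 to 12.02 on CTRL arrays. MSC-EVs replicate 3 was the high array, with Mki67 (a proliferation marker) at 16.7 log2 units against 14.9 and 14.7 on MSC-EVs replicates 1 and 2. Mki67 was at 14.28 to 14.37 in CTRL, 14.35 to 14.40 in i-EVs and 14.62 to 14.83 in IL4-EVs. It thus lay above CTRL on each IL4-EV and MSC-EV array. The cycling markers Top2a, Cdk1 and Aurkb were lower than CTRL on every EV array except MSC-EVs replicate 3. No measured cycling marker had an adjusted limma p under 0.05 against CTRL. In such bulk samples fewer cells of a type and less RNA per cell cannot be told apart, and the part of cycling cells or of the cell types of these markers in the results below was not tested. Without MSC-EVs replicate 3 the count of members called in MSC-EVs against CTRL was 680, against 688 with it.

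As a group the members were lower in all 3 EV conditions. The median over the 1960 members was 10.70, 10.42 and 10.53 log2 units on the i-EV arrays, 10.62, 10.47 and 10.46 on the IL4-EV arrays and 10.57, 10.35 and 10.40 on the MSC-EV arrays, against 10.89, 10.80 and 10.88 on the CTRL arrays. No EV array reached the lowest CTRL array. The median log2 fold change over the members was -0.26 for i-EVs, -0.23 for IL4-EVs and -0.44 for MSC-EVs, all against CTRL. The 7517 other clusters with 1 symbol and the same minimum level had medians of -0.07, -0.11 and -0.10 in the same comparisons, which share the CTRL arrays. After cyclic loess the members' medians were -0.15, -0.12 and -0.30, and those of the other clusters 0.01, -0.01 and 0.00.

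A cluster was called where its fold change was at least 1.5 and its limma p, adjusted over all 65535 clusters, was below 0.05. In MSC-EVs 40 members rose and 648 fell against CTRL, where 5.73% of all clusters were called in either direction. The falls were 33.1% of the members, where 2.62% of all clusters and 7.13% of the other named clusters above the same level fell, and the rises were 2.04% of the members against 3.12% of all clusters. In IL4-EVs, where 1.8% of all clusters were called, 11 members rose and 253 fell, so that 12.9% of the members fell against 1.26% of all clusters, and 0.561% rose against 0.537%. In i-EVs, where 0.154% of all clusters were called, 2 members rose and 33 fell, or 1.68% of the members lower against 0.122% of all clusters and 0.102% higher against 0.032%. By the adjusted p alone 63 members were higher and 881 lower in MSC-EVs (5.86% and 6.75% of all clusters), 21 and 418 in IL4-EVs (1.61% and 4.13%), and 2 and 60 in i-EVs (0.0977% and 0.378%). The direction of the calls over all clusters moved with the scaling. As deposited 352 clusters rose and 826 fell in IL4-EVs, and 21 rose and 80 fell in i-EVs. After a second quantile normalization 565 rose and 428 fell in IL4-EVs, and 72 rose and 41 fell in i-EVs, and after cyclic loess 587 rose and 398 fell in IL4-EVs, and 103 rose and 48 fell in i-EVs. Of the members 13 rose and 133 fell in IL4-EVs after a second quantile normalization and 14 rose and 124 fell after cyclic loess, while 4 rose and 18 fell in i-EVs after the one and 6 rose and 20 fell after the other. In MSC-EVs 53 members rose and 497 fell, and 65 rose and 451 fell, under these scalings, where 1919 of all clusters rose and 1392 fell, and 2268 rose and 1152 fell. Of the called members, 3 of the 40 that rose in MSC-EVs and 1 of the 11 in IL4-EVs had a CTRL mean under 6, and 12 of the 648 that fell in MSC-EVs and 3 of the 253 in IL4-EVs had an EV mean under 6, so that of the pair compared only the brighter group was above the minimum.

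The i-EV count moved with single arrays. It was 0 when any 1 of the CTRL or IL4-EV arrays was left out, and also when replicate 2 or 3 of the i-EVs was. It was 303 when replicate 1 of the i-EVs was left out, and 19, 21 and 134 when replicates 1, 2 and 3 of the MSC-EVs were. Of the i-EV calls 81.8% were lower after a second quantile normalization and 76.9% after cyclic loess, against 94.3% as deposited. The IL4-EV count was 118 without CTRL replicate 1, 127 without IL4-EVs replicate 2 and 173 without IL4-EVs replicate 3.

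**Figure D1:**
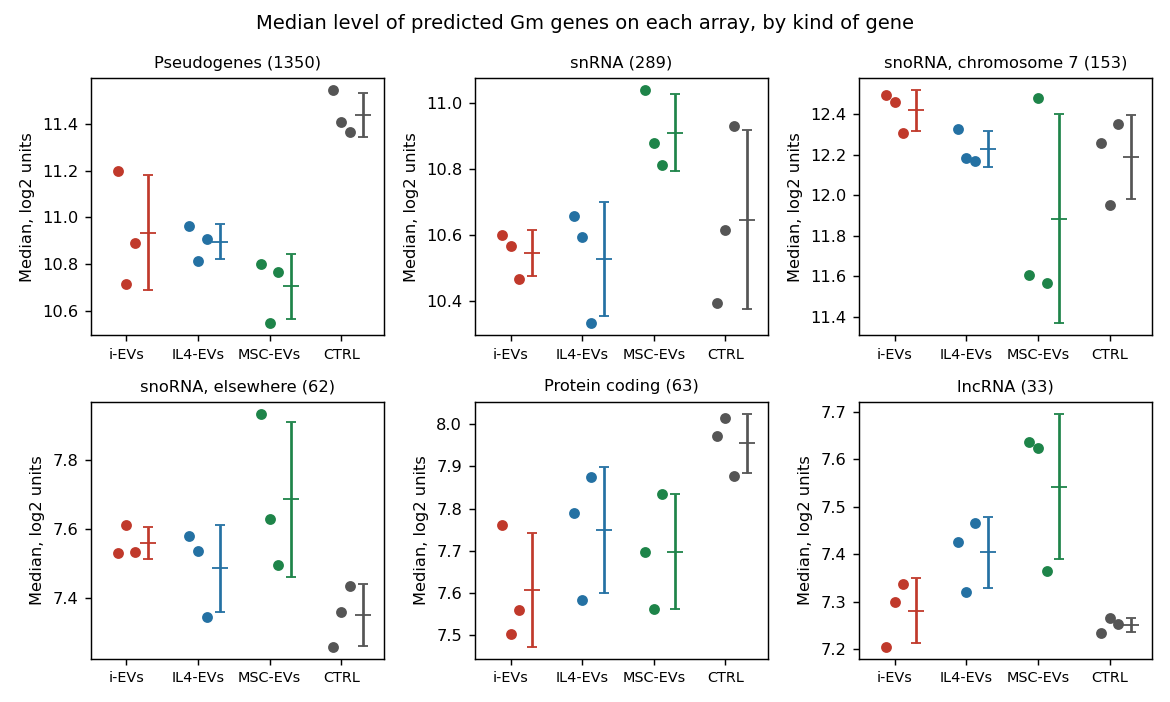
Median level in log2 units over the members of each kind of gene (number in brackets), with 1 point per array and, beside the points, the mean and SD of the 3 array medians of a group. Pseudogene medians lie between 10.55 and 11.20 on the 9 EV arrays and between 11.37 and 11.54 on the CTRL arrays. Protein coding medians are also lower on every EV array, at 7.50 to 7.87 against 7.88 to 8.01 on the CTRL arrays. The remaining kinds follow other patterns.

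Of the 648 members that fell in MSC-EVs, 627 were pseudogenes. The pseudogene median lay at 11.20, 10.72 and 10.89 log2 units on the i-EV arrays, 10.96, 10.82 and 10.91 on the IL4-EV arrays and 10.80, 10.55 and 10.77 on the MSC-EV arrays, against 11.54, 11.41 and 11.37 on the CTRL arrays, with no overlap. Against CTRL, 627 of 1350 pseudogenes fell and 2 rose in MSC-EVs (median log2 fold change -0.58), 249 fell and 3 rose in IL4-EVs (-0.39), and 32 fell and none rose in i-EVs (-0.37). The median stayed negative under every scaling tried, at -0.44, -0.29 and -0.26 for MSC-EVs, IL4-EVs and i-EVs after cyclic loess, where 441, 123 and 19 pseudogenes fell and 11, 5 and 1 rose. After a second quantile normalization 485, 132 and 17 fell. The IL4-EV count of 249 was 113 without CTRL replicate 1, 123 without IL4-EVs replicate 2 and 159 without IL4-EVs replicate 3. The i-EV count of 32 was 0 without any 1 of the CTRL or IL4-EV arrays or of i-EVs replicates 2 and 3, 295 without i-EVs replicate 1, and 16, 18 and 122 without MSC-EVs replicates 1, 2 and 3.

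**Figure D2:**
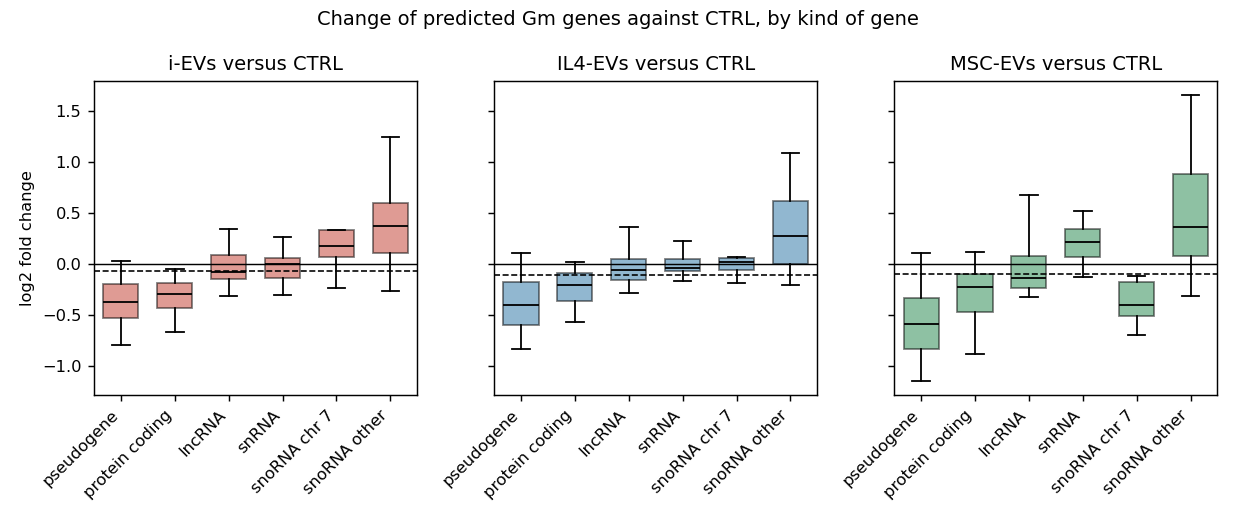
log2 fold change against CTRL for the members of each kind, in 1 panel per EV type. Boxes span the quartiles with a line at the median, whiskers run to the 5th and 95th percentiles, and the dashed line is the median of the 7517 other named clusters of the same minimum level. Pseudogenes have the lowest medians (-0.37, -0.39 and -0.58), and snoRNAs outside chromosome 7 the highest (0.38, 0.27 and 0.37).

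Gm13623, a pseudogene on chromosome 2, had the lowest fold change of the called members without overlap in MSC-EVs. It measured 10.22, 8.52 and 9.55 log2 units in i-EVs, 9.78, 9.61 and 9.62 in IL4-EVs and 9.44, 8.85 and 8.95 in MSC-EVs, against 10.89, 10.68 and 10.81 in CTRL. All EV arrays lay below the CTRL arrays, but the i-EV arrays were widely spread. The log2 fold change was -1.71 ± 0.32 (SE) in MSC-EVs, a 3.27-fold fall (adjusted p = 0.00478), and it was not called in i-EVs (-1.36 ± 0.32, adjusted p = 0.0756) or IL4-EVs (-1.12 ± 0.32, adjusted p = 0.0676). Gm16210, Gm13215, Gm7936 and Gm12957 were next in MSC-EVs, with log2 fold changes of -1.54, -1.48, -1.46 and -1.46. Gm12957 was uneven, at 10.93, 10.67 and 12.18 log2 units in MSC-EVs against 12.94, 12.69 and 12.54 in CTRL.

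In IL4-EVs the lowest called member without overlap was Gm8069 on chromosome 5. It measured 9.23, 8.87 and 8.57 log2 units in i-EVs, 8.14, 8.31 and 8.17 in IL4-EVs and 8.26, 8.39 and 8.38 in MSC-EVs, against 9.70, 9.46 and 9.79 in CTRL. The i-EV arrays lay between the other EV types and CTRL. The log2 fold change was -1.44 ± 0.14 in IL4-EVs (adjusted p = 0.0013) and -1.31 ± 0.14 in MSC-EVs (adjusted p = 0.000443). Among such calls Gm7936, Gm6293, Gm16418 and Gm5848 followed in IL4-EVs at -1.42, -1.39, -1.12 and -1.10. Gm5848 has 2 clusters, of which this is 1.

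Gm13623 and Gm16210 had i-EV log2 fold changes of -1.36 and -1.14 but were not called. The lowest called members without overlap in i-EVs were Gm8019, Gm2214 and Gm6472, all on chromosome X, with Gm13771 and Gm13502 on chromosome 2. Their log2 fold changes were -1.08, -0.94, -0.93, -0.90 and -0.89, with adjusted p between 0.034 and 0.0433. Gm8019 measured 11.07, 10.52 and 10.40 log2 units in i-EVs, against 11.73, 11.58 and 11.91 in CTRL, with no overlap. RefSeq now calls Gm6472 Rps7-ps3, after a protein of the small ribosomal subunit.

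A few pseudogenes were called in each of the 3 comparisons with CTRL, which share the CTRL arrays. Gm14270 on chromosome 2 had the smallest p of them in MSC-EVs. Its values were 12.11, 12.01 and 12.06 log2 units in i-EVs, 11.86, 11.78 and 11.87 in IL4-EVs and 11.85, 11.65 and 11.51 in MSC-EVs, against 12.60, 12.64 and 12.70 in CTRL. The replicates lay close together and the log2 fold changes were -0.59, -0.81 and -0.98 (SE 0.08 each; adjusted p = 0.0346, 0.0013 and 0.000214). Gm12918, Gm10243, Gm16418 and Gm6252 were the others with the smallest p, with log2 fold changes between -1.25 and -0.93 in MSC-EVs.

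**Figure D3:**
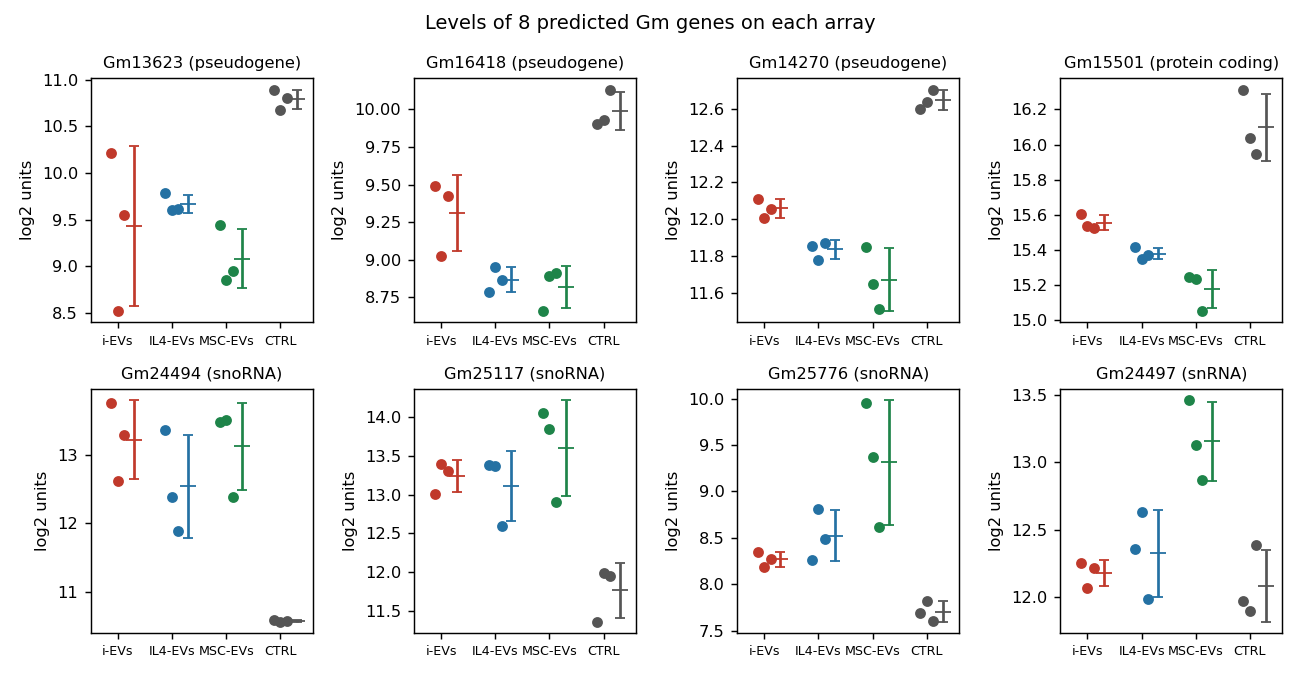
Levels in log2 units of 8 members, 1 panel each, with 1 point per array and the mean and SD of each group beside the points. The pseudogenes Gm13623, Gm16418 and Gm14270 and the protein coding Gm15501 lie lower on the EV arrays, and the snoRNAs Gm24494, Gm25117 and Gm25776 lie higher. The snRNA Gm24497 is at 12.87 to 13.46 in MSC-EVs and at 11.90 to 12.39 in CTRL.

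The fall was spread over levels and chromosomes. In MSC-EVs 116 of 322 pseudogenes with means of 6 to 8 log2 units fell, 142 of 253 with means of 8 to 10, 109 of 205 with means of 10 to 12 and 260 of 570 at 12 or more, with medians of -0.49, -0.69, -0.67 and -0.58. The other named clusters in the same bins had medians of -0.08, -0.08, -0.10 and -0.18. Among chromosomes other than Y, which held 1 pseudogene, the share of pseudogenes that fell in MSC-EVs ran from 34.4% of 32 on chromosome 12 to 59.0% of 39 on chromosome 9, and no chromosome had a median above -0.51.

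By gene length in RefSeq the pattern was not even. In MSC-EVs the 56 pseudogenes shorter than 300 bases had a median log2 fold change of 0.01, and 14 fell and 2 rose. Those of 300 to 500 bases had a median of -0.76, with 132 of 190 lower, and those of 500 to 1000 bases a median of -0.70, with 279 of 471 lower. The medians were -0.50 for the 437 of 1000 to 2000 bases and -0.37 for the 196 of 2000 bases or more. IL4-EVs gave -0.07, -0.58, -0.48, -0.28 and -0.29 over the same bins, and i-EVs -0.02, -0.45, -0.44, -0.31 and -0.30. Each range leaves out its upper end, and length was that of the RefSeq gene, not of the probed stretch.

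**Figure D4:**
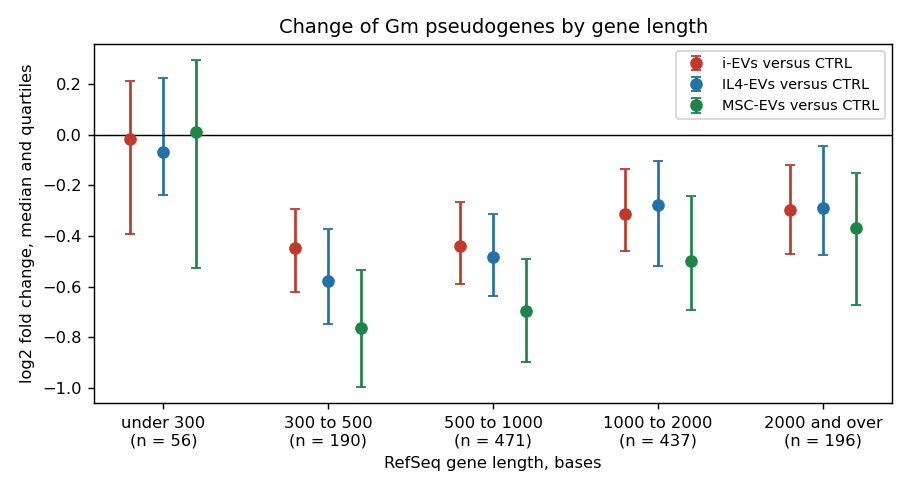
Median log2 fold change against CTRL of the Gm pseudogenes in 5 bins of RefSeq gene length in bases, with bars from the first to the third quartile and 1 colour per EV type. The shortest bin lies near 0 in all 3 comparisons, and the bin of 300 to 500 bases is lowest, at -0.76 in MSC-EVs.

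Pseudogenes with other symbols fell too. Of 314 such clusters at the same minimum level, 172 fell and none rose in MSC-EVs (54.8%, median -0.65), 100 fell in IL4-EVs (31.8%, -0.49) and 11 in i-EVs (3.5%, -0.42). The 100 were 60 without CTRL replicate 1, 62 without IL4-EVs replicate 2, 59 after cyclic loess and 57 after a second quantile normalization. The 11 were 0 without any 1 of the CTRL or IL4-EV arrays or of i-EVs replicates 2 and 3, 94 without i-EVs replicate 1, and 4, 7 and 44 without MSC-EVs replicates 1, 2 and 3. Within them the 171 named ribosomal protein pseudogenes had medians of -0.84, -0.55 and -0.48 for MSC-EVs, IL4-EVs and i-EVs, with 128, 72 and 10 lower. The 72 were 46 without IL4-EVs replicate 2, 47 after cyclic loess and 44 after a second quantile normalization. The 10 were 0 without each array that brought the 11 to 0, 74 without i-EVs replicate 1, and 4, 6 and 36 without MSC-EVs replicates 1, 2 and 3. The 47 genes of cytosolic ribosomal proteins themselves had medians of -0.49, -0.40 and -0.28, with 16, 7 and 0 lower, and 7, 5 and 0 lower after cyclic loess. Without i-EVs replicate 1, 4 were lower in i-EVs. The 72 nuclear genes of oxidative phosphorylation (OXPHOS) subunits, which build the respiratory chain, had 31, 33 and 1 lower and medians of -0.55, -0.55 and -0.28. After cyclic loess 23, 16 and 0 were lower. The 1 in i-EVs was 0 without each array that brought the 11 to 0, 8 without i-EVs replicate 1 and 3 without MSC-EVs replicate 3.

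For 54 member pseudogenes the present RefSeq symbol names a parent gene, and for 43 of them that parent, 38 genes in all, had its own cluster. A parent of several pseudogenes counts in each of its pairs, and Gm10012 enters through separate clusters, at -0.40 and -0.91 in MSC-EVs. By log2 fold change in MSC-EVs, the pseudogene was below 0 in 42 of the 43 pairs and the parent in 40. The medians were -0.61 for the pseudogenes and -0.32 for the parents, and 22 pseudogenes but 4 parents fell past both thresholds. IL4-EVs gave medians of -0.49 and -0.32 with 12 and 3 called, and i-EVs -0.37 and -0.18 with 1 and 1 called. The pseudogene had the lower value of the pair in 37, 33 and 37 of 43 pairs in MSC-EVs, IL4-EVs and i-EVs. Parents were not held to the minimum of 6 log2 units. Cbx3 and Tmem229b had means of 4.70 and 4.88 log2 units, and Atp5k and Rps18 lay just above the minimum at 6.22 and 6.28. The part of cluster level in the difference between pseudogenes and parents was not tested.

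Single pairs differed. Gm6274, now Rpl7-ps9, had a log2 fold change of -1.37 in MSC-EVs where Rpl7, a protein of the large ribosomal subunit, had -0.41. Gm6472 (Rps7-ps3) had -1.14 and Rps7 -0.61. Gm5514, now Ldhb-ps, had -0.98 and Ldhb, a subunit of lactate dehydrogenase, -1.01. Gm8394, now Psma5-ps, had -0.87 and Psma5, a subunit of the proteasome core, -0.74. Gm6768, now Ncoa4-ps, was the 1 pseudogene of the 43 above 0, at 0.30 and not called. Whether probes of a pair bind the same RNA was not tested.

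**Figure D5:**
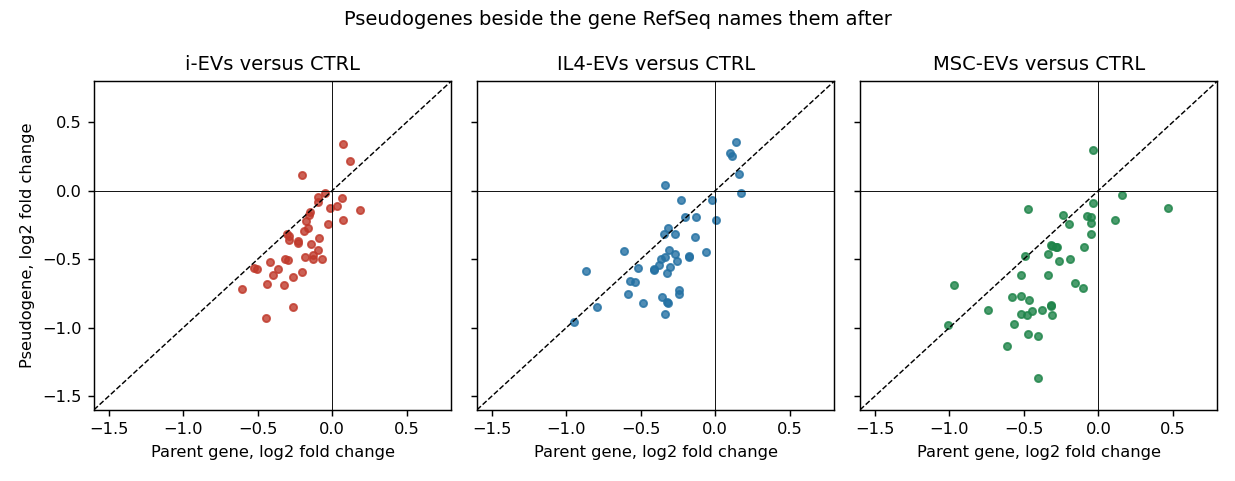
log2 fold change against CTRL of 43 Gm pseudogenes (vertical) beside the gene that their RefSeq symbol names (horizontal), 1 panel per EV type; the dashed line marks equal values. In MSC-EVs 37 of 43 points lie below the line.

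Few pseudogenes rose. In MSC-EVs these were Gm24298 on chromosome 10, at 7.18, 6.91 and 7.19 log2 units against 6.30, 6.20 and 6.26 in CTRL (log2 fold change 0.84), and Gm24412 on chromosome 7 (0.66), whose mean was 6.40 in MSC-EVs and 5.74 in CTRL, so that MSC-EVs brought it past the minimum of 6. Both are short, at 93 and 109 bases in RefSeq. In IL4-EVs they were Gm18953 (0.69), Gm25406 (0.68) and Gm13767 (0.67). They are all the pseudogene members that rose. Gm24412 was also named as 1 of the members at the lower edge, and those outside the rule for named genes were chosen after their values were seen.

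The 63 protein coding members had no rise in any comparison with CTRL. In MSC-EVs 12 fell, in IL4-EVs 4 and in i-EVs 1, with medians of -0.22, -0.20 and -0.29. The 12 were 7 after cyclic loess, and the 4 were 1 after cyclic loess or a second quantile normalization and 2 without CTRL replicate 1, IL4-EVs replicate 2 or IL4-EVs replicate 3. The 1 in i-EVs was 0 without any 1 of the CTRL or IL4-EV arrays or of i-EVs replicates 2 and 3, 4 without i-EVs replicate 1 and 2 without MSC-EVs replicate 3. Gm15501 on chromosome 7 had the smallest p. It measured 15.60, 15.54 and 15.53 log2 units in i-EVs, 15.42, 15.35 and 15.37 in IL4-EVs and 15.25, 15.24 and 15.05 in MSC-EVs, against 16.31, 16.04 and 15.94 in CTRL. The EV arrays lay below the CTRL arrays, and the log2 fold change was -0.92 ± 0.09 in MSC-EVs (adjusted p = 0.000339) and -0.72 ± 0.09 in IL4-EVs (adjusted p = 0.00198). In i-EVs it was -0.54 ± 0.09, under the fold threshold. Gm13194 and Gm14279, both on chromosome 2, fell by 0.99 and 0.97 on the log2 scale in MSC-EVs. Gm2436 and Gm2446 on chromosome 12 had identical values and fell by 0.63, so they count as 1 measurement. Of the 6962 other protein coding clusters at the same minimum level, 356 fell and 193 rose in MSC-EVs, with a median of -0.09, and 163 fell and 328 rose after cyclic loess.

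The snoRNAs fell into 2 sets with opposite signs in MSC-EVs. Of 215 members, 153 lie on chromosome 7 and 62 elsewhere. Among the 62, 22 rose and none fell in MSC-EVs, 8 rose in IL4-EVs and 2 in i-EVs, with median log2 fold changes of 0.37, 0.27 and 0.38. Their array medians were 7.53, 7.61 and 7.53 log2 units in i-EVs, 7.58, 7.54 and 7.34 in IL4-EVs and 7.93, 7.63 and 7.50 in MSC-EVs, against 7.26, 7.36 and 7.44 in CTRL. Only IL4-EVs replicate 3 overlapped the CTRL arrays. The medians stayed positive under each scaling tried, and 20 to 24 of the 62 rose in MSC-EVs. The 8 in IL4-EVs were 1 without IL4-EVs replicate 1, IL4-EVs replicate 2 or CTRL replicate 1, 5 without CTRL replicate 2 or 3 and 13 without MSC-EVs replicate 3.

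Gm24494, on chromosome 3 inside Rabggtb (a subunit of the enzyme that attaches lipid tails to Rab proteins), had the highest fold change of all members in each EV condition. Its values were 13.76, 12.61 and 13.28 log2 units in i-EVs, 13.36, 12.38 and 11.89 in IL4-EVs and 13.48, 13.50 and 12.39 in MSC-EVs, against 10.60, 10.57 and 10.58 in CTRL. The CTRL arrays were within 0.03 of each other and every EV array was more than 1 unit higher. The log2 fold changes were 2.63, 1.96 and 2.54 (SE 0.39 each; adjusted p = 0.0361, 0.0131 and 0.00179). These are 6.2-fold, 3.88-fold and 5.81-fold rises. Gm25128 on chromosome 17, the other member that rose in i-EVs, had 7.32, 7.16 and 7.15 log2 units there against 6.52, 6.26 and 6.33 in CTRL (log2 fold change 0.84 ± 0.14, adjusted p = 0.0382).

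Gm25117, Gm24130, Gm25107, Gm24727, Gm25776 and Gm23123 rose by 1.84, 1.83, 1.80, 1.66, 1.61 and 1.61 on the log2 scale in MSC-EVs. Gm25117 measured 13.01, 13.40 and 13.31 log2 units in i-EVs, 13.38, 13.38 and 12.59 in IL4-EVs and 14.06, 13.85 and 12.90 in MSC-EVs, against 11.35, 11.98 and 11.95 in CTRL. Its i-EV log2 fold change of 1.48 ± 0.30 had an adjusted p of 0.0541. MSC-EVs replicate 3 was the lowest MSC-EV array in each of the 6. Gm24879 on chromosome 16 (1.48) and Gm25394 on chromosome 13 (1.30) complete the named snoRNAs. Gm25394 had a mean of 6.09 log2 units over all arrays, 6.75 in MSC-EVs and 5.46 in CTRL. Of that pair only MSC-EVs was above the minimum of 6. By length, 18 of the 22 risers were among the 48 with 120 or more bases in RefSeq and 4 among the 14 shorter ones. These counts are near the split of lengths in the whole set, and a difference between lengths was not tested. The length classes of snoRNA broadly follow their chemistry, since the H/ACA kind, which guides pseudouridylation, is longer than the C/D kind, which guides methylation.

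Of the 22 risers, 19 lie within the span of a protein coding gene, and 13 of those genes had their own cluster (RefSeq positions; the strand was not compared). None of the 13 host genes was called in MSC-EVs. The snoRNAs of these 13 had a median log2 fold change of 1.30 and the host genes one of 0.12, within a range of -0.33 to 0.56. Nap1l1, a histone chaperone that holds Gm25117, had -0.17 ± 0.10. Rpl4, a ribosomal protein gene that holds Gm23136, had 0.00 ± 0.06 where its snoRNA had 0.88. The value nearest to its snoRNA was that of Ubap2 (0.56 ± 0.09), which holds Gm24837 (0.83). Other named snoRNAs rose too, at 15 of 40 in MSC-EVs with a median of 0.64.

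The 153 snoRNA members on chromosome 7 behaved otherwise. Of them 149 lie within Snhg14, a long noncoding host transcript, between Ube3a and Snrpn. This is the imprinted region whose human counterpart is lost from the paternal chromosome in Prader-Willi syndrome, and its snoRNAs stand in long tandem arrays. RefSeq gives 112 of them a length of 79 bases and 34 a length of 94, and sets of 33 and 23 had identical values. Their array medians were 12.49, 12.46 and 12.30 log2 units in i-EVs, 12.33, 12.19 and 12.17 in IL4-EVs and 11.61, 12.48 and 11.57 in MSC-EVs, against 12.26, 11.95 and 12.35 in CTRL. MSC-EVs replicates 1 and 3 were low and replicate 2 was above all CTRL arrays, so the groups overlapped. In MSC-EVs 151 of 153 had a log2 fold change below 0 (median -0.40), 9 fell and none rose. Without MSC-EVs replicate 2, 59 fell, and without MSC-EVs replicate 3, 3 fell and 1 rose. Without CTRL replicate 1, 2 or 3 the count was 2, 5 or 4, and it was 3 after cyclic loess or a second quantile normalization. In i-EVs and IL4-EVs none was called, with medians of 0.18 and 0.03.

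Gm23141 had the lowest fold change of these 153 members, at 12.44, 11.91 and 11.67 log2 units in MSC-EVs against 13.48, 13.35 and 12.98 in CTRL (log2 fold change -1.26 ± 0.27, adjusted p = 0.0102). It was chosen after its values were seen. Gm22131 had -0.92 ± 0.19 (adjusted p = 0.00885). Snhg14 itself had a log2 fold change of 0.24 ± 0.06 in MSC-EVs, of the other sign and under the fold threshold.

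Among the 289 snRNAs 12 rose and none fell in MSC-EVs, where 3.12% of all clusters rose and 2.62% fell. Most of the 12 were members of 191 bases, described below. No snRNA was called in IL4-EVs or i-EVs. There 8 and 29 of them had an unadjusted limma p under 0.05, against 10888 and 8747 of all 65535 clusters. The median log2 fold changes of the snRNAs were 0.22, -0.03 and 0.00 in MSC-EVs, IL4-EVs and i-EVs. After cyclic loess 25 rose in MSC-EVs, with medians of 0.37, 0.09 and 0.12, and after a second quantile normalization 18, so the count and the sign of the IL4-EV median move with the scaling. Without CTRL replicate 1, 7 rose. The 210 members of 107 bases, which include those identical to Rnu6, had no call, but 5 rose in MSC-EVs after either of these scalings. The Rnu6 set measured 13.64, 14.18 and 13.73 log2 units in i-EVs, 13.84, 14.04 and 13.46 in IL4-EVs and 14.11, 14.27 and 14.20 in MSC-EVs, against 13.54, 13.84 and 14.17 in CTRL. The CTRL arrays were spread and overlapped the others, with a log2 fold change of 0.35 in MSC-EVs (adjusted p = 0.308). The set identical to Rnu1a1 had 18.50, 18.41 and 18.14 log2 units in MSC-EVs against 17.77, 17.98 and 18.07 in CTRL. Its log2 fold change of 0.41 had an adjusted p of 0.0301 and lay under the fold threshold.

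Of 11 snRNA members with 191 bases in RefSeq, 9 rose in MSC-EVs, with a median of 0.92 over the 11, while the medians were 0.09 in i-EVs and 0.21 in IL4-EVs. This length was singled out after the values were seen. Without CTRL replicate 1, 5 of the 11 rose, and the median ran from 0.70 to 1.10 as single arrays were left out. Gm24497 on chromosome 1 measured 13.46, 13.13 and 12.87 log2 units in MSC-EVs, against 11.97, 11.90 and 12.39 in CTRL. Its i-EV arrays, at 12.26, 12.07 and 12.22, and IL4-EV arrays, at 12.36, 12.63 and 11.99, overlapped CTRL. The log2 fold change was 1.07 ± 0.18 in MSC-EVs (adjusted p = 0.00319). Gm23472 on chromosome 1 and Gm23444 on chromosome 11 had identical values, at a log2 fold change of 1.05, so the 11 members hold 10 distinct sets of values and are not independent. Gm23287, of 116 bases, rose by 1.37.

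Of the 33 lncRNA members 4 rose and none fell in MSC-EVs, and none was called in IL4-EVs or i-EVs. The median log2 fold change over all 33 was -0.13 in MSC-EVs, -0.05 in IL4-EVs and -0.07 in i-EVs, and -0.04, 0.06 and 0.02 in that order after cyclic loess. The array medians of the level ran the other way in IL4-EVs and MSC-EVs, at 7.20, 7.30 and 7.34 log2 units in i-EVs, 7.43, 7.32 and 7.46 in IL4-EVs and 7.64, 7.62 and 7.37 in MSC-EVs, against 7.23, 7.27 and 7.25 in CTRL. Gm15384 on chromosome X measured 8.39, 8.71 and 8.48 log2 units in i-EVs, 8.54, 8.76 and 8.85 in IL4-EVs and 9.47, 8.89 and 9.99 in MSC-EVs, against 7.94, 8.24 and 8.37 in CTRL. All EV arrays were above CTRL, and the MSC-EV log2 fold change was 1.27 ± 0.22 (adjusted p = 0.00346). Gm10865 (0.72), Gm26944 (0.68) and Gm3414 (0.64) were the others, named here as all lncRNA members that rose.

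Of the called lncRNAs, Gm26944 and Gm3414 have a start site window in the RefSeq promoter table, and both are shown because they rose together and their windows differ in composition. Each spans 300 bases around the start site, in the build GRCm38.p6, and capitals mark matches to TATAA (the TATA box core), GGGCGG (an Sp1 motif) or CCAAT on either strand. The window of Gm26944 lies at chr7:92636911-92637210 on the plus strand, is rich in G and C, and holds none of the motifs. That of Gm3414 lies at chr5:45727529-45727828 on the minus strand and holds TATAA on both strands, overlapping, and CCAAT on the other strand.
Gm26944: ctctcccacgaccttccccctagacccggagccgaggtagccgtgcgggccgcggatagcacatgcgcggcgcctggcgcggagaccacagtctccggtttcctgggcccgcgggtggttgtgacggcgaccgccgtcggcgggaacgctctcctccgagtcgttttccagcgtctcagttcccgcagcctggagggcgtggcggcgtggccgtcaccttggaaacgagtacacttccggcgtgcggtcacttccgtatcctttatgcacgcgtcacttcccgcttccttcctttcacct
Gm3414: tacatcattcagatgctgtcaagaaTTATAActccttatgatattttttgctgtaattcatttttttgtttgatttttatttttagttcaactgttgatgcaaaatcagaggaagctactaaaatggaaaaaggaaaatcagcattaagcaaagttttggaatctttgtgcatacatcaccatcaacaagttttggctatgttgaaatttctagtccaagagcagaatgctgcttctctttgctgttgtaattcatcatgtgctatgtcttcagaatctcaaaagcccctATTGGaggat
Over all 32851 windows of that length 24.9% held TATAA, 35.7% GGGCGG and 37.4% CCAAT, and over the 88 windows of 76 members the shares were 21.6%, 31.8% and 45.5%. A match is a run of letters and not a bound site.

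Between EV types few members were called. In MSC-EVs against i-EVs, where 0.8% of all clusters were called, 5 members rose and 9 fell, or 0.255% and 0.459% of the members against 0.711% and 0.0885% of all clusters. By the adjusted p alone 8 were higher and 32 lower (1.07% and 0.385% of all clusters). The 5 risers were 4 snRNAs of 191 bases, Gm24497, Gm23971, Gm23472 and Gm23444, and the lncRNA Gm26944. The 9 that fell were pseudogenes. With arrays centred on their median 5 rose and 3 fell, so fewer falls were called and rises became the majority. With only these 2 groups in the fit none was called. Leaving out any 1 array moved this count of 14 by more than 1.5 times. It was 27, 114 and 2 as replicates 1, 2 and 3 of the MSC-EVs were left out, 0, 22 and 4 for those of the i-EVs, 3, 6 and 7 for those of the IL4-EVs and 6, 5 and 7 for those of CTRL. Gm5400 on chromosome X measured 5.76, 5.47 and 5.59 log2 units in MSC-EVs against 6.42, 6.23 and 6.30 in i-EVs (log2 fold change -0.71 ± 0.11, adjusted p = 0.0258). Its i-EV values overlapped those of CTRL, at 6.57, 6.36 and 6.21. It was the 1 of the 9 falls with an MSC-EV mean under the minimum of 6, at 5.60. Gm12481, Gm12751 and Gm11942, all on chromosome 4, had -0.62, -0.62 and -0.59, and Gm24497 had 0.97 ± 0.18 (adjusted p = 0.0317). No member was called in IL4-EVs against i-EVs, where 0% of all clusters were called. There limma gave 147 of 1960 members an unadjusted p under 0.05 and, a like share, 4954 of all 65535 clusters. No member was called in MSC-EVs against IL4-EVs either, where 0.00153% of all clusters were called. There 530 of 1960 members had an unadjusted limma p under 0.05, a larger share than the 5838 of all 65535 clusters. The members' median log2 fold change in that comparison ran from -0.15 to -0.09 as single arrays were left out.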

How the data were processed

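RNA of 12 samples was hybridised to Clariom D mouse arrays. The authors summarised probes by robust multi-array average (RMA) with quantile normalization, using Affymetrix software (Transcriptome Analysis Console in the methods, Affymetrix Expression Console in the submitters' processing notes), and deposited linear intensity values, which were turned into log2 here; a second deposited table held the same intensity values. No array was left out, and the number of arrays, not a count of reads, limits the precision. Symbols came from the array annotation and gene types, lengths and parents from RefSeq (GRCm38.p6). The sources used here state no build for the array annotation. Differences were fitted on all 65535 clusters with limma 3.58.1 (1 mean per group, moderated variance, 8 residual degrees of freedom, all 4 groups in the fit), with Benjamini-Hochberg adjustment and a fold threshold of 1.5, as in the study's methods. The fit was tested on simulated arrays in which 200 members were changed in MSC-EVs against CTRL. By the adjusted limma p alone, 12%, 66% and 92.5% of changes of 1.5-fold, 2-fold and 3-fold were recovered. Of the clusters that passed, 4%, 8.33% and 6.57% were false. In the data 3843 clusters rose and 4424 fell by the adjusted p alone in MSC-EVs against CTRL, where the simulation changed 200. The adjusted p depends on that number, so the simulated shares need not hold for the data. A cluster that was not called may therefore still have changed. No detection call was used, and a mean of 6 log2 units served as a working minimum. Named genes were, in each comparison with CTRL, the 5 lowest and 5 highest called members without overlap, the 5 highest in level, and, by smallest p, up to 5 each of those called in all 3 comparisons, of protein coding and of noncoding calls in MSC-EVs and of the calls of each direct comparison, with 3 on either side of the minimum. The members and lists were chosen with earlier results of these data known. Alternatives were other scalings, filters, moderation, a replicate block, the second table and leaving out each array. A planned comparison of protein sequences was not run. R 4.3.3 and Python 3.11.15 were used.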

Additional observations from a re-analysis of the deposited data

How the results depend on the processing

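The direction of the members did not turn under any setting run: their median log2 fold change stayed below 0 in each comparison with CTRL, and no called named gene changed sign. The number of members changed moved as follows. In i-EVs against CTRL it was 35, and became 22 after a second quantile normalization, 211 when only clusters of mean 6 or more were tested, 8 with robust moderation and a trend, 0 when only the 2 groups entered the fit, and 62 without the fold threshold. In IL4-EVs against CTRL it was 264, and became 146 after a second quantile normalization, 138 after cyclic loess and 439 without the fold threshold. In MSC-EVs against CTRL it was 688 and stayed within 1.5 times of that under each of these. In MSC-EVs against i-EVs it was 14, and became 23 after cyclic loess, 8 with arrays centred on their median, 51 when only clusters of mean 6 or more were tested, 7 with robust moderation, 0 with the 2 groups alone and 40 without the fold threshold; the lower calls were 64.3% of the 14, and 78.3% after cyclic loess, 37.5% after centring and 74.5% among clusters of mean 6 or more. Leaving out 1 array at a time gave 0 to 303 in i-EVs, 118 to 312 in IL4-EVs and 481 to 731 in MSC-EVs against CTRL, 0 to 114 in MSC-EVs against i-EVs, 0 to 2 in MSC-EVs against IL4-EVs and 0 to 0 in IL4-EVs against i-EVs. The causes were not tested. With 1 cluster per set of identical values, a setting chosen after seeing the data, 46 members were changed in i-EVs, 265 in IL4-EVs and 680 in MSC-EVs against CTRL.

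Same-numbered arrays of different groups had correlations of -0.10 to 0.14 in their deviations from the group means. Their median was 0.033, with 3 of 18 pairs over 0.1. Differently numbered arrays had correlations of -0.13 to 0.11, a median of -0.015 and 1 of 36 pairs over 0.1. All pairs of replicate 1 arrays were positive, at 0.07 to 0.14, and held the 3 same-numbered pairs over 0.1. Whether the replicate numbers mark arrays handled together was not tested. With the replicate block 165 members were changed in i-EVs, 322 in IL4-EVs and 727 in MSC-EVs against CTRL, and 50 in MSC-EVs against i-EVs. Of the named calls, 40 of 40 in MSC-EVs, 27 of 27 in IL4-EVs and 15 of 15 in i-EVs were kept with the block. Leaving out 1 array lost 7 of 480 values in MSC-EVs, 48 of 324 in IL4-EVs and 133 of 180 in i-EVs.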
